A study of Mus musculus with 12 samples.

Results

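The bone morphogenetic protein (Bmp) and hedgehog genes of the colonic crypt axis were examined in RNA from the proximal colon of 12 mice. The 9 genes, out of 38924 in the count tables, were taken by name: the ligands *Bmp2*, *Bmp4* and *Bmp7*, the antagonists *Grem1*, *Nog* and *Chrdl1*, the hedgehog ligands *Ihh* and *Shh*, and the hedgehog receptor *Ptch1*. All 9 were found in the tables and all 9 passed the filter on low counts. The mice were female C57BL/6, 6 weeks old, and came in several shipments. One group (n = 6) was APC Min/+, with one *Apc* allele carrying the germline Min mutation in every tissue, and the other (n = 6) was wild type (WT) at *Apc*. The genotypes were housed separately for the weeks before sampling, so housing and genotype cannot be told apart, and the labels do not give the shipment of a mouse. Each library was made from the RNA of 1 mouse.

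Bmp ligands bind paired receptors that activate Smad transcription factors, which switch on genes such as the Id family. In the colon Bmp signalling is known to be strong near the surface and weak at the crypt base, where stromal cells that lie beneath the crypts, smooth muscle among them, secrete antagonists such as gremlin 1 and chordin-like 1 that hold the ligands away from stem cells. Hedgehog proteins are made by the epithelium, mainly as Indian hedgehog in the adult colon, and are received by stromal cells through patched 1, the product of a gene that the pathway itself switches on.

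The total count on genes lay between 50313805 and 197914821 per mouse, and the 9 genes were counted with 18 to 20492 reads in a library, so that counting error was small beside the spread between mice except for *Shh* and *Nog*. *Apc* itself stood at 192.2 ± 16.97 CPM (reads on the gene relative to the library total, SD over 6 mice) with the mutation and 186.2 ± 30.67 CPM (SD over 6 mice) without it, a count that does not separate the alleles. The samples, labelled mucosa, held epithelium and muscle layers alike. The summed level of 9 epithelial genes lay between 7467 and 14280 CPM, that of 10 smooth muscle genes between 5555 and 8171 CPM. Some libraries stood apart from the rest. In the APC Min/+ mice M10_2 and M13_1 a list of 6 genes that mark the posterior hindgut summed to 469.9 and 555.0 CPM, against 1.03 to 2.93 CPM in the other 10 mice, although the label gives proximal colon for both, and their adipocyte list (5 genes) was the lowest of all, at 20.08 and 35.5 CPM against 63.0 to 509.6. In the WT mouse M17_1 gene levels fell with the GC content of the transcript, with a slope of -0.419 on the log2 scale per 10% GC, against -0.217 to 0.156 in the others, and the epithelial (7467 CPM) and fibroblast (1207 CPM) lists had their lowest sums there. Values without M10_2 and M13_1, or without M17_1, are therefore set beside many of the comparisons below. In bulk tissue a lower count cannot tell fewer cells of a type from less RNA per cell.

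None of the 9 genes differed between genotypes beyond the spread between mice, and the highest and lowest values of several genes lay in the libraries that stood apart. Counts were compared with the quasi-likelihood test of edgeR over 20311 genes, with a gene called at a false discovery rate (FDR) under 0.05 together with a change of 2-fold or more. By that rule 0 of 9 genes were called, where 0.0% of all genes were. DESeq2 also called 0 of 9, where it called 27 of all 20311 genes, and edgeR's exact test 0 of 9, where it called 12 of 20311. At an unadjusted p under 0.05, 1 of 9 genes passed (*Bmp2*, higher in APC Min/+), where 5.27% of all genes did and 3.46% did with the higher mean in APC Min/+. Without M10_2 and M13_1, 0 of 9 passed, where 1.59% of all genes did. APC Min/+ and WT values overlapped for all 9 genes, and 0.118% of all genes showed no overlap. The median log2 fold change of the 9 was 0.25, against -0.01 over all genes tested, and was 0.10 without M10_2 and M13_1.

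*Bmp2* (ENSMUSG00000027358.6, chromosome 2 from 133552159 to 133562885, forward strand, GRCm38) encodes a ligand made mostly by the differentiated epithelium of the colon surface. Its level was lowest at 13.6, with a median of 32.1 and a highest value of 67.0 CPM in APC Min/+ mice, and ran from 7.08 through a median of 21.8 to 29.2 CPM in WT mice. The top of the APC Min/+ range was M13_1 (67.0 CPM) and M10_2 (59.1 CPM), and the bottom of the WT range was M17_1. The remaining 4 APC Min/+ values fell between 13.6 and 36.4 CPM, a span that covers most of the WT range. *Bmp2* had the largest log2 fold change of the 9 genes, 0.95 with a standard error of 0.39 (edgeR quasi-likelihood, FDR = 0.908). An exact permutation test (two-sided) of the log2 levels gave p = 0.0801. Without M10_2 and M13_1 the log2 fold change was 0.39 with a standard error of 0.36. Leaving out single mice gave 0.71 without M13_1 to 1.12 without M2_A. In these edgeR quasi-likelihood fits the unadjusted p stayed under 0.05 in 7 of 12. It was 0.0728 without M10_2 (log2 fold change 0.78) and 0.0857 without M13_1 (0.71). Without M16_1, M18_2a and M17_1 it was 0.0591, 0.0718 and 0.0590 (log2 fold changes 0.92, 0.85 and 0.77).

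*Bmp4* (ENSMUSG00000021835.8, chromosome 14 from 46383520 to 46390669, reverse strand) encodes the main Bmp ligand of the stroma around the crypts. Its levels ran from 18.01 through a median of 24.1 to 33.0 CPM in APC Min/+ mice and from 16.6 through 21.3 to 22.8 CPM in WT mice. The highest values were again those of M10_2 (33.0 CPM) and M13_1 (25.9 CPM), and the other 10 mice lay between 16.6 and 24.2 CPM. For *Bmp4* the log2 fold change was 0.21 with a standard error of 0.14 (edgeR quasi-likelihood, FDR = 0.908) and 0.04 without those mice.

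*Bmp7* (ENSMUSG00000008999.7, chromosome 2 from 172868012 to 172940321, reverse strand) encodes a ligand that can pair with *Bmp2* or *Bmp4* products. It was counted at 5.05 through a median of 6.83 to 8.67 CPM in APC Min/+ mice and at 4.74 through 5.83 to 9.58 CPM in WT mice, so the WT range enclosed all APC Min/+ values. The log2 fold change of 0.02 was smaller than its standard error of 0.19 (edgeR quasi-likelihood, FDR = 0.985), and it changed sign in some of the fits that left out 1 mouse, between -0.07 and 0.16.

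*Grem1* (ENSMUSG00000074934.3, chromosome 2 from 113746164 to 113758646, reverse strand) encodes the antagonist that binds *Bmp2* and *Bmp4* products below the crypts. In APC Min/+ mice it was lowest at 31.3 CPM, with a median of 35.6 and a highest value of 68.0 CPM. In WT mice it ran from 27.1 through 31.6 to 42.7 CPM. M13_1 (68.0 CPM) and M10_2 (67.5 CPM) stood well above the other 10 mice. Among those the genotypes overlapped throughout, with 31.3 to 37.4 CPM in the other APC Min/+ mice. The log2 fold change was 0.44 with a standard error of 0.22 (edgeR quasi-likelihood, FDR = 0.908). Without M10_2 and M13_1 it was 0.01 with a standard error of 0.13. Leaving out 1 mouse gave 0.28 (without M13_1) to 0.53 (without M16_1), with an unadjusted p under 0.05 in 4 of 12 fits.

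*Nog* (ENSMUSG00000048616.3, chromosome 11 from 89300638 to 89302332, reverse strand) encodes noggin, a secreted protein that masks Bmp ligands from their receptors. It was scarce, at 1.24 through a median of 1.55 to 1.66 CPM in APC Min/+ mice and at 0.332 through 1.27 to 1.91 CPM in WT mice. The lowest value was that of M17_1, far below all the others, while M10_2 and M13_1 (1.24 and 1.28 CPM) were inside the WT range. Between genotypes the log2 fold change was 0.27 with a standard error of 0.31 (edgeR quasi-likelihood, FDR = 0.911), and 0.07 without M17_1.

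*Chrdl1* (ENSMUSG00000031283.9, X chromosome from 143285674 to 143394262, reverse strand) encodes chordin-like 1, another secreted antagonist. Levels ran from 15.7 through a median of 20.7 to 31.3 CPM in APC Min/+ mice and from 15.7 through 18.1 to 22.8 CPM in WT mice. The highest was M13_1, followed by M2_A at 26.6 CPM, and M10_2 lay within the WT range at 21.7 CPM. Its log2 fold change of 0.25 had a standard error of 0.16 (edgeR quasi-likelihood, FDR = 0.908), and it was 0.10 without M10_2 and M13_1.

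*Ihh* (ENSMUSG00000006538.9, chromosome 1 from 74945315 to 74951672, reverse strand) encodes the epithelial hedgehog ligand. It was counted at 38.3 through a median of 61.7 to 105.1 CPM in APC Min/+ mice and at 16.3 through 67.4 to 84.0 CPM in WT mice. The genotypes overlapped, and 2 of 6 APC Min/+ mice were above the WT median. The lowest value was that of M17_1, a deviation of -1.958 log2 units from the median of the 12 mice, in a library in which genes of high GC content were low, and the *Ihh* transcript has a GC content of 62.3%, above that of 98.8% of genes with a mean of at least 1 CPM. The part of GC content in that value was not tested. *Gli1*, also rich in GC at 59.0%, lay 0.41 log2 units above its median in M17_1. For *Ihh* the log2 fold change was 0.19 with a standard error of 0.34 (edgeR quasi-likelihood, FDR = 0.925) and lay between -0.004 without M17_1 and 0.33 without M19_1.

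*Shh* (ENSMUSG00000002633.3, chromosome 5 from 28456815 to 28467256, reverse strand) encodes sonic hedgehog, the ligand of the developing gut and of few cells in the adult colon. It was the only one of the 9 with the lower mean in APC Min/+ mice. Its levels were 0.199 through a median of 0.949 to 1.58 CPM in APC Min/+ mice and 0.931 through 1.58 to 2.22 CPM in WT mice. M13_1 (0.199 CPM, 18 counts) and M10_2 (0.364 CPM) were the lowest of the 12 mice and M17_1 the highest, and the remaining APC Min/+ values fell between 0.851 and 1.58 CPM. The log2 fold change was -0.77 with a standard error of 0.42 (edgeR quasi-likelihood, FDR = 0.908), with p = 0.0628 in the exact permutation test. Without M10_2 and M13_1 it was -0.34 with a standard error of 0.26. Leaving out 1 mouse gave -0.99 (without M18_2b) to -0.56 (without M13_1), with an unadjusted p under 0.05 in 1 of 12 fits.

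*Ptch1* (ENSMUSG00000021466.6, chromosome 13 from 63508328 to 63573598, reverse strand) encodes the hedgehog receptor. Its levels ran from 14.4 through a median of 30.9 to 44.9 CPM in APC Min/+ mice and from 11.2 through 21.6 to 32.2 CPM in WT mice. M10_2 (44.9 CPM) and M13_1 (36.6 CPM) were the highest of the 12 mice and M17_1 the lowest. For *Ptch1* the log2 fold change was 0.40 with a standard error of 0.28 (edgeR quasi-likelihood, FDR = 0.908) and 0.11 without M10_2 and M13_1.

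**Figure D1:**
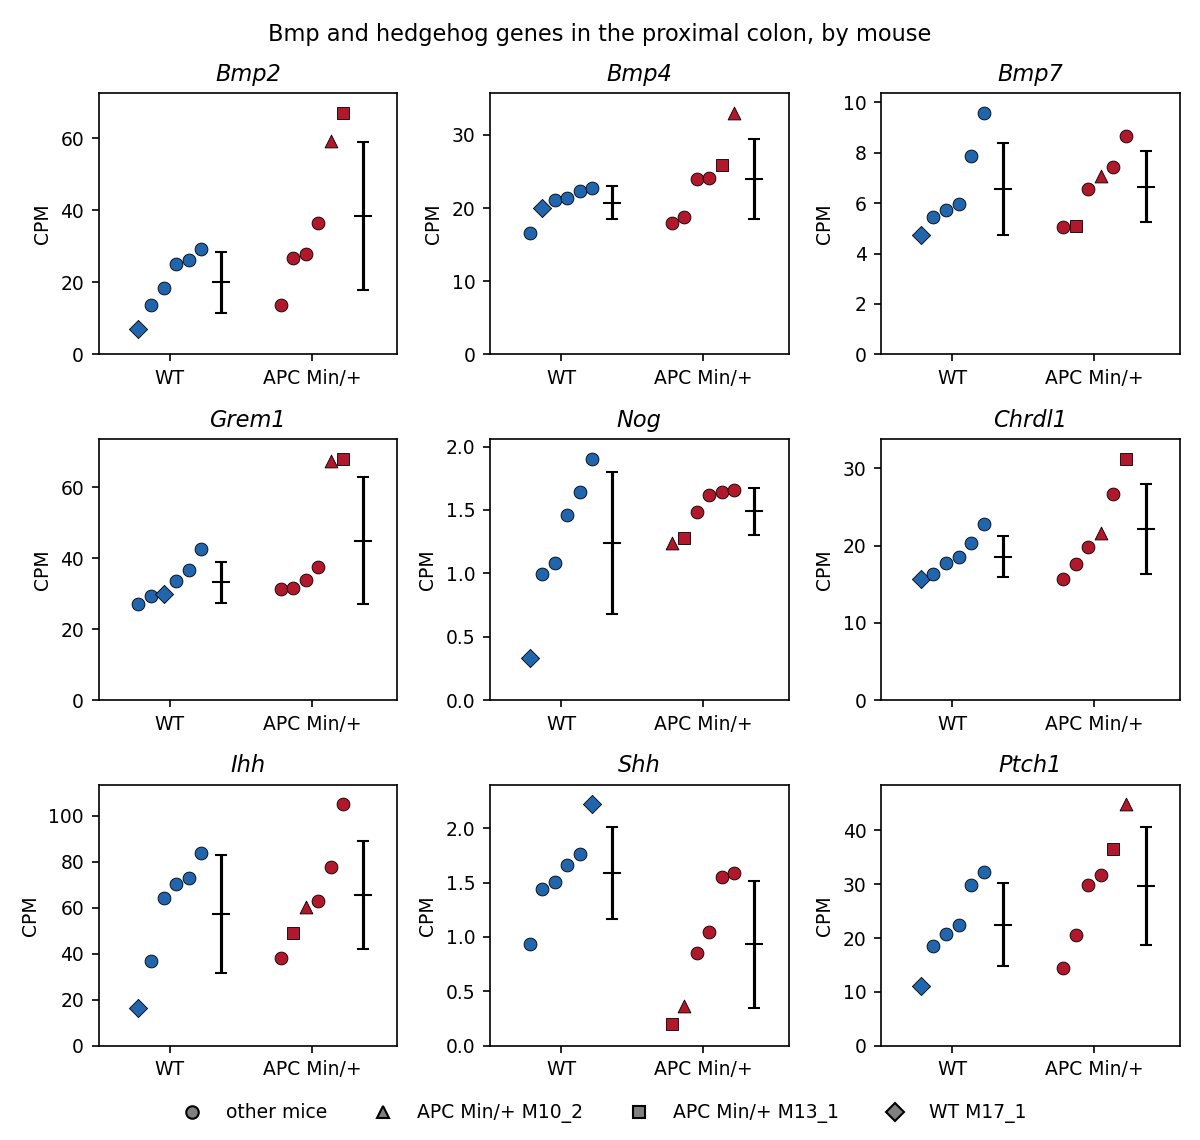
CPM of each of the 9 genes by mouse in 6 WT (blue) and 6 APC Min/+ (red) mice, with the mean and SD beside the points, a triangle for M10_2, a square for M13_1 and a diamond for M17_1. *Grem1* is near 68 CPM in the triangle and the square and at or below 42.7 CPM in every other mouse.

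The extremes of the 9 genes were shared by few libraries. M10_2 and M13_1 held the 2 highest values of 12 for 4 of 9 genes (*Bmp2*, *Bmp4*, *Grem1*, *Ptch1*), where 11.8% of all genes had that pattern, and the 2 lowest for 1 of 9 (*Shh*), against 12.2% of all genes. M17_1 had the lowest value for 5 of 9 (*Bmp2*, *Bmp7*, *Nog*, *Ihh*, *Ptch1*), against 21.7% of all genes. The deviations from the median of the 12 mice reached -1.89 log2 units for *Bmp2*, -1.87 for *Nog* and -1.21 for *Ptch1* in M17_1, and -2.396 for *Shh* in M13_1. The APC Min/+ mouse M2_A and the WT mouse M18_2a had the next steepest negative slopes with GC content (-0.210 and -0.217). They were next lowest for *Bmp2* and *Ihh*, whose transcripts have 52.5% and 62.3% GC. *Ptch1*, at 47.8% GC (above 39.7% of genes with a mean of at least 1 CPM), was lowest in M17_1 and next lowest in M2_A. *Nog*, at 56.2% GC, deviated from its median by 0.145 log2 units in M2_A and by -0.519 in M18_2a. The part of the posterior genes, of GC content and of tissue makeup in these values was not tested.

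**Figure D2:**
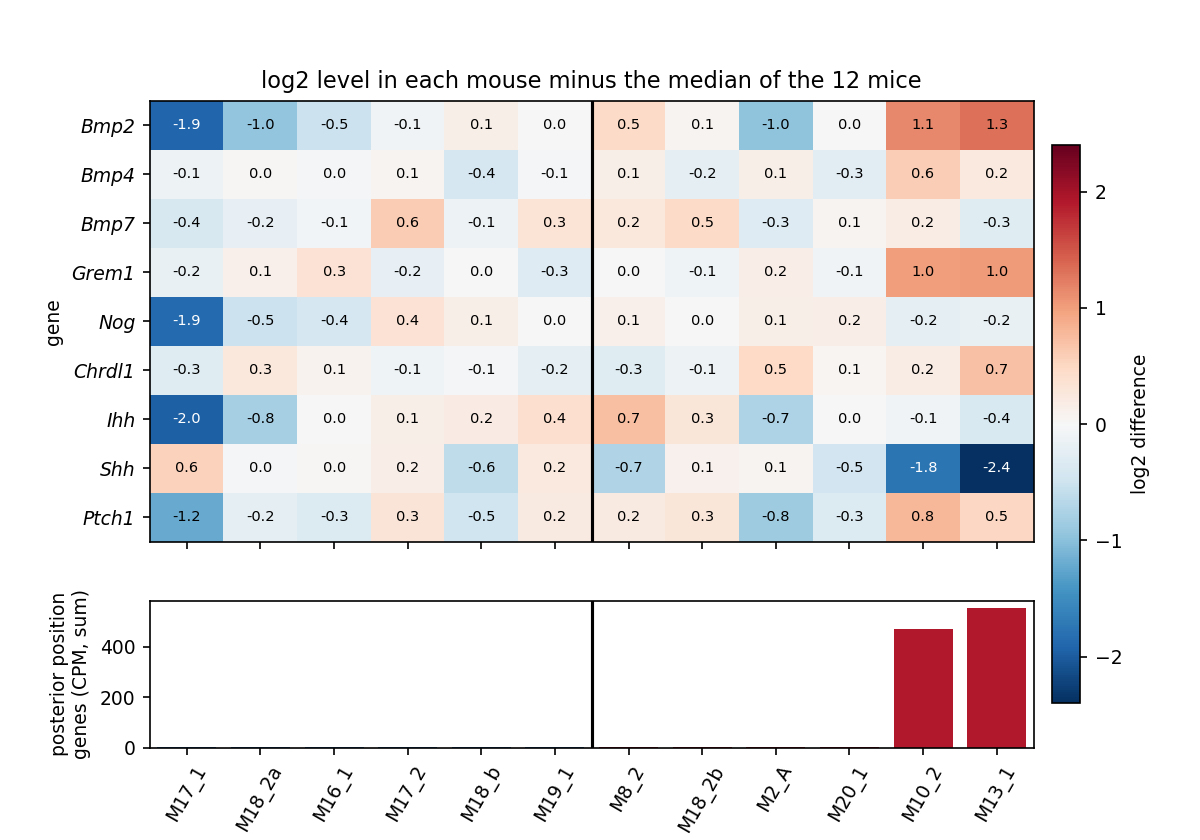
Log2 level of each gene in each mouse minus the median of the 12 mice (colour and printed value), above the summed CPM of 6 posterior position genes in the same mouse. WT mice are left and APC Min/+ mice right of the line. The posterior genes are at 469.9 and 555.0 CPM in the columns at the right end, where *Bmp2* and *Grem1* are high and *Shh* is low, and the column at the left end is M17_1.

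The 250 bases before the RefSeq transcription start and 50 after it (GRCm38.p6) were read for *Bmp4*, *Grem1*, *Ihh* and *Ptch1*, the 4 genes with an entry. Motifs of the factors that act on these pathways were searched on both strands. The hexamer GGCGCC is a known binding sequence of Smad1 and Smad5 that reads the same on both strands. It occurs in 2 of these 4 promoters, *Grem1* and *Ptch1*, and in 11.9% of 32851 promoters. The GC content of the windows is 70.7% for *Grem1*, 76.3% for *Ptch1*, 64% for *Bmp4* and 72.7% for *Ihh*. The share among promoters of like GC content was not counted. The hexamer starts 78 bases before the RefSeq start used for the *Grem1* window and 161 bases before that used for *Ptch1*. The *Ptch1* window lies inside the gene (63508328 to 63573598), so its start is not the outermost one. Other starts of *Ptch1* were not read. These 2 promoters are printed in the direction of transcription with the hexamer in capitals. They are chr2:113758599-113758898 for *Grem1* and chr13:63565686-63565985 for *Ptch1*, both on the reverse strand.
*Grem1*: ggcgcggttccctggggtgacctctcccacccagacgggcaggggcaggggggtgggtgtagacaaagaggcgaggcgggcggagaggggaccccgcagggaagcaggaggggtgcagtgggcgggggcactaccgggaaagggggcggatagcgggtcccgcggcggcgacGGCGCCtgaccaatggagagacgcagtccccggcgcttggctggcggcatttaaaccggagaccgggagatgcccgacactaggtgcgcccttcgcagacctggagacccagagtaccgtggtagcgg
*Ptch1*: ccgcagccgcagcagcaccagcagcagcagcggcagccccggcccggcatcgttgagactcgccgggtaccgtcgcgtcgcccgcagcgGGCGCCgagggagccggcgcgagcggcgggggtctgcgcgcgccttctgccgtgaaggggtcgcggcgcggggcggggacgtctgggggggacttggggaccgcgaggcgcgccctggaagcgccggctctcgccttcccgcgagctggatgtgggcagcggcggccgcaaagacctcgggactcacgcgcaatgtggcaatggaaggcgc
The letters GACCACCCA (bound by Gli factors, held by 0.253% of all promoters), CTTTGAT (Tcf/Lef, 3.73%), TTTACGA (posterior Hox, 0.597%) and TTTATGG (Cdx, 2.75%) are not in these windows of the 4 genes. A match or its absence is a description of the letters and was not tied to the levels.

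Levels between genes were compared per length, as RPKM (reads scaled to library size and to gene length) from the TMM-scaled CPM and the gene lengths in the files. In WT mice the order was led by *Ihh* at 23.5 ± 10.5 RPKM (SD, n = 6). *Bmp4* followed at 9.32 ± 1.01, *Grem1* at 8.0 ± 1.38, *Bmp2* at 5.62 ± 2.39, *Ptch1* at 5.22 ± 1.79 and *Chrdl1* at 2.75 ± 0.39 RPKM (SD, n = 6 each). The lowest were *Bmp7* at 1.63 ± 0.45, *Nog* at 0.644 ± 0.291 and *Shh* at 0.589 ± 0.157 RPKM (SD, n = 6 each). Of the 8 pairs of neighbours in this order, *Bmp7* and *Nog* had WT ranges that did not overlap, and the ranges of the other 7 overlapped. *Ptch1* was nonetheless above *Chrdl1*, and *Chrdl1* above *Bmp7*, in 6 of 6 WT mice. The length given for *Ptch1*, 4305 bp, equals its longest coding sequence in GENCODE M21 with the stop codon, whereas the union of its exons there is 14185 bp, so its RPKM rests on a coding length and its place in the order depends on that.

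**Figure D3:**
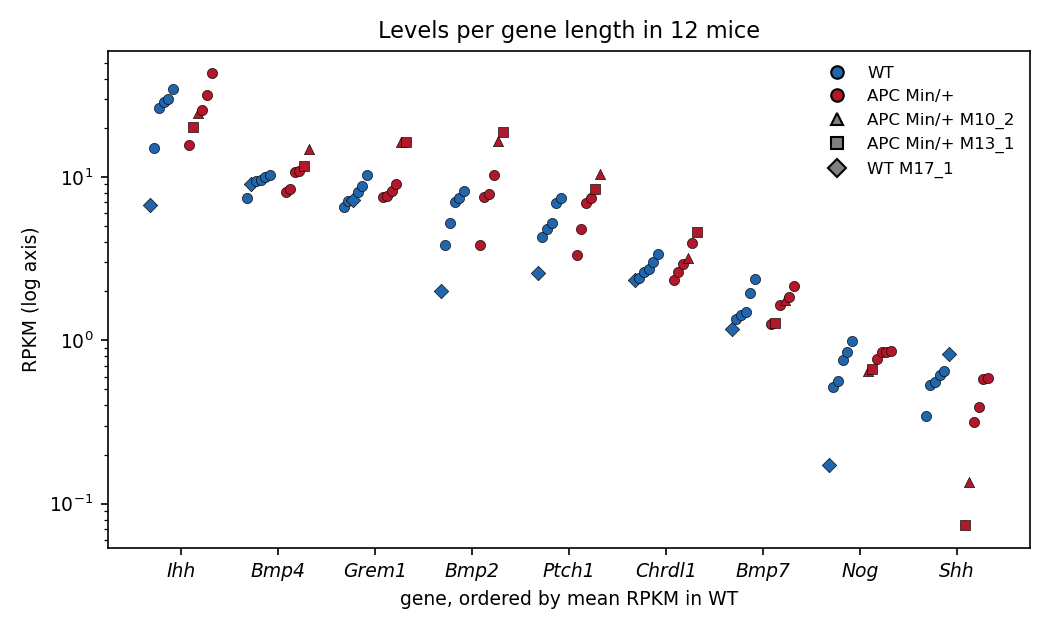
RPKM (log axis) of the 9 genes in 6 WT (blue) and 6 APC Min/+ (red) mice, ordered by the WT mean, with the same symbols for M10_2, M13_1 and M17_1. *Ihh* leads at a WT mean of 23.5 RPKM and *Shh* is last at 0.589 RPKM.

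Ratios within a mouse were compared for 5 pairs of genes in RPKM with exact permutation tests (two-sided) of their log2 values. *Ihh* exceeded *Shh* in every mouse, 27.1- to 273.0-fold in APC Min/+ mice and 8.11- to 86.3-fold in WT mice (exact permutation p = 0.0823, and 0.367 without M10_2 and M13_1). The ratio of the antagonist *Grem1* to its ligand *Bmp4* was 0.987 ± 0.236 (SD) in APC Min/+ and 0.868 ± 0.176 (SD) in WT mice (exact permutation p = 0.335). The APC Min/+ mean of that ratio without M10_2 and M13_1 was 0.855, below the WT mean (exact permutation p = 0.995). That of the epithelial ligand *Bmp2* to the stromal ligand *Bmp4* was 0.984 ± 0.407 (SD) against 0.620 ± 0.312 (SD), with an exact permutation p of 0.139, and 0.790 in APC Min/+ without that pair (p = 0.419). *Ihh* per *Ptch1* was 4.22 ± 1.57 (SD) against 4.45 ± 1.67 (SD), exact permutation p = 0.786, and 5.14 in APC Min/+ without the pair (p = 0.381). *Grem1* per *Nog* was 14.8 ± 7.86 (SD) against 17.02 ± 12.9 (SD), exact permutation p = 0.861, and 9.71 in APC Min/+ without the pair (p = 0.357). None of the 5 ratios differed beyond the spread between mice.

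Other genes of both pathways were taken from 8 lists of 63 genes, of which 57 passed the filter on low counts. By the FDR and fold rule 0 of 57 were called. An unadjusted p under 0.05 was found for 9 of 57, all with the higher mean in APC Min/+, where 3.46% of all genes passed in that direction, and for 0 of 57 without M10_2 and M13_1. Of the 57 genes, 45 had a log2 fold change above 0 (44 without M10_2 and M13_1), against 48.4% of all genes tested, with a median of 0.20 against -0.01. M10_2 and M13_1 held the 2 highest values for 16 of 57 (11.8% of all genes) and the 2 lowest for 4 of 57 (12.2%), and M17_1 the lowest for 32 of 57 (21.7%). The FDR of all 9 was 0.908 in the edgeR quasi-likelihood fit over all genes.

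Among 8 other ligands tested, 2 had an unadjusted p under 0.05. *Bmp6* reached 9.14 CPM (M10_2) and 6.65 CPM (M13_1), against 0.617 to 3.80 CPM in the other 10 mice, with a log2 fold change of 0.95, and of 0.45 without that pair. *Gdf7*, a ligand of the same family, was near its detection limit, with 0 counts in 1 WT mouse and at most 71 counts in any library (log2 fold change 1.62, and 1.09 without the pair). *Bmp3*, an atypical ligand that opposes the others, had the highest RPKM of this list, at 21.04 ± 5.54 (SD, n = 6) in WT mice. *Bmp3* was lowest in M13_1 (26.2 CPM) and M10_2 (27.0 CPM), against 48.0 to 88.8 CPM in the other mice. Its log2 fold change was -0.49, and -0.22 without the pair. The ligands *Bmp10*, *Bmp15* and *Gdf2* did not pass the filter on low counts.

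Among 9 other antagonists and binding proteins tested, 2 had an unadjusted p under 0.05. *Chrdl2*, a relative of *Chrdl1*, reached 2.60 CPM (M10_2) and 2.32 CPM (M13_1), against 0.428 to 0.785 CPM elsewhere, with a log2 fold change of 1.05, and of 0.18 without them. *Fstl1*, a follistatin-like protein of stromal cells, had a small difference, 0.28 on the log2 scale, which was 0.26 without the pair. *Nbl1* had the highest RPKM of the list, 26.1 ± 9.31 (SD, n = 6) in the WT group, and its log2 fold change was 0.06. *Sost* and *Cer1* did not pass the filter.

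None of 10 receptors and 6 Smads had an unadjusted p under 0.05. *Bmpr1a*, the type I receptor with the highest RPKM of its list (27.6 ± 2.87, SD, n = 6, in WT mice), had a log2 fold change of -0.13, and *Bambi*, a receptor without a kinase that dampens the signal, one of -0.43, which was -0.22 without M17_1, where *Bambi* was highest at 16.9 CPM. *Smad4*, the Smad shared by the Bmp and Tgf-beta branches, reached 154.9 CPM (M10_2) and 150.1 CPM (M13_1), against 39.2 to 117.4 CPM in the other 10 mice. Its log2 fold change was 0.54, and 0.21 without the pair. The unadjusted p of *Smad4* was 0.0527 in the quasi-likelihood fit, 0.0445 with DESeq2 (FDR = 0.756) and 0.0419 with edgeR's exact test (FDR = 0.898).

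Of 5 Bmp target genes tested, *Id1* and *Id4* had an unadjusted p under 0.05, and *Id2*, *Id3* and *Msx1* did not, while *Msx2* did not pass the filter. The log2 fold changes of *Id2*, *Id3* and *Msx1* were -0.14, -0.03 and 0.47, so the targets did not share a direction. *Id1*, an inhibitor of basic helix-loop-helix factors, lay at 70.5 to 105.4 CPM in APC Min/+ mice and at 61.5 to 80.9 CPM in WT mice. The highest values were those of M13_1 and M10_2, the other APC Min/+ mice reached 92.8 CPM, and the genotypes overlapped. Its log2 fold change of 0.35 with a standard error of 0.11 had the smallest unadjusted p of the pathway genes (FDR = 0.908, edgeR quasi-likelihood), kept an unadjusted p under 0.05 in all 12 fits that left out 1 mouse (0.29 to 0.42), and was 0.23, no longer under that p, without M10_2 and M13_1. *Id4* was 31.2 CPM in M13_1, 19.7 CPM in M10_2 and 7.98 to 17.5 CPM in the other mice (log2 fold change 0.52, and 0.24 without the pair).

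Of 19 other hedgehog genes, all tested, 18 had a log2 fold change above 0, against 48.4% of all genes tested, and 3 an unadjusted p under 0.05. These counts were 16 and 0 without M10_2 and M13_1, with *Gli1*, *Hhip* and *Scube2* below 0. The WT mouse M17_1 was the lowest of 12 mice for 13 of the 19 genes, against 21.7% of all genes. The number above 0 was not counted without M17_1. *Hhat*, the enzyme that attaches palmitate to hedgehog ligands, was 4.13 CPM in M10_2, 4.07 CPM in M13_1 and 0.654 to 2.29 CPM elsewhere (log2 fold change 0.90, and 0.37 without the pair). *Cdon*, a hedgehog co-receptor, was 65.4 and 61.3 CPM in M10_2 and M13_1 and 15.8 to 26.8 CPM elsewhere (log2 fold change 0.77, and 0.08 without them). *Foxl1*, a transcription factor of the stromal cells that lie against the crypts, was 2.41 and 2.26 CPM against 0.322 to 1.45 CPM (log2 fold change 0.87, and 0.43 without them). The target genes *Gli1* and *Hhip*, direct readouts of the pathway, each had a log2 fold change of 0.05, with an FDR of 0.954 and 0.957 (edgeR quasi-likelihood). By mean RPKM over the 12 mice the highest of their lists were *Disp1*, which releases the ligands (log2 fold change 0.22), the co-receptor *Gas1* (0.36) and the stromal factor *Foxf1* (0.30), none with an unadjusted p under 0.05. Without M17_1, where all 3 were lowest, these were 0.089, 0.155 and 0.13.

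**Figure D4:**
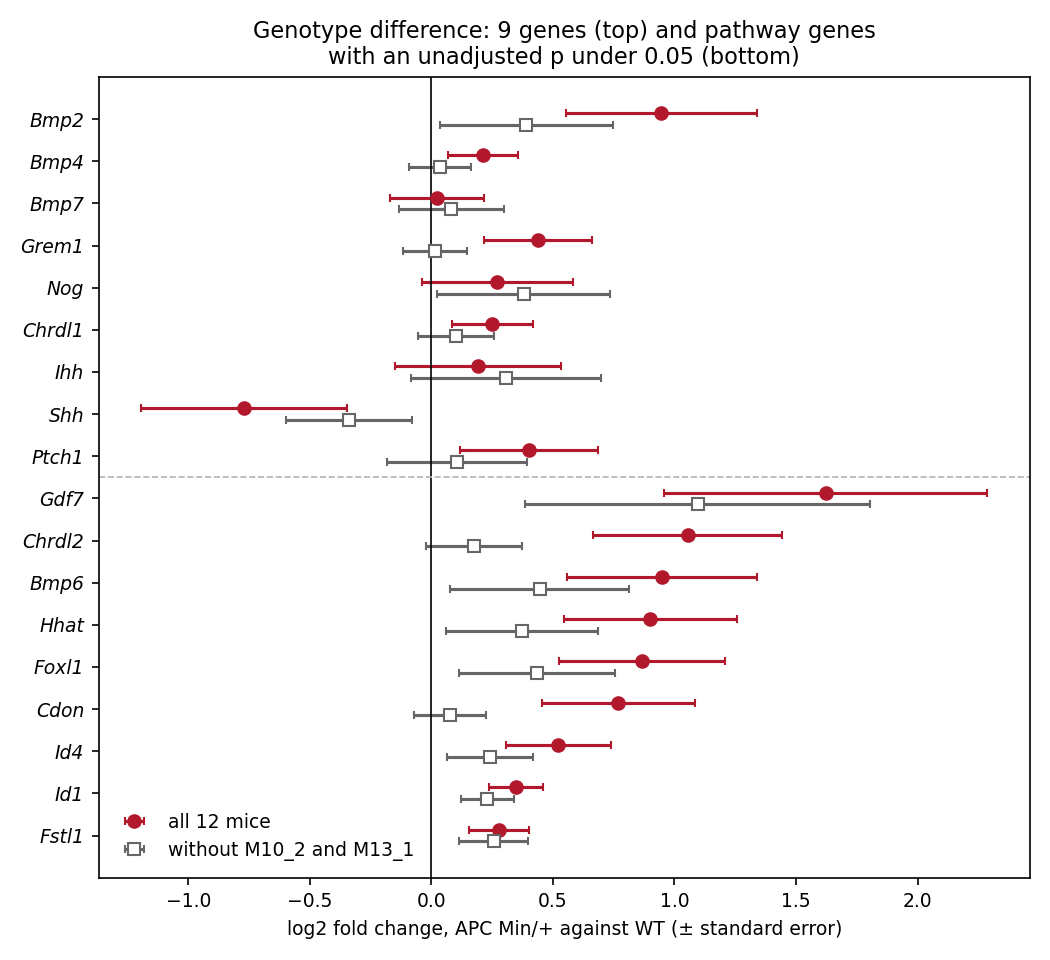
Log2 fold change of APC Min/+ against WT with its standard error for the 9 genes (above the dashed line) and for the 9 pathway genes with an unadjusted p under 0.05 (below it), over all 12 mice (red circles) and without M10_2 and M13_1 (open squares). *Grem1* moves from 0.44 to 0.01 and *Cdon* from 0.77 to 0.08 between those fits.

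Stromal genes of these pathways are read in tissue whose makeup varied. Of 9 fibroblast genes, 8 had a log2 fold change above 0, where 48.4% of all genes tested did. So did 8 of 10 smooth muscle, 8 of 9 enteric nervous, 5 of 5 endothelial and 6 of 9 epithelial genes. For leukocyte genes it was 3 of 7, for adipocyte genes 2 of 5 and for squamous genes 2 of 4 tested. The summed fibroblast level lay between 2237 and 3332 CPM in APC Min/+ and between 1207 and 2576 CPM in WT mice, with overlap (exact permutation test, two-sided, p = 0.0216, and 0.195 adjusted over 9 marker lists). The highest sum was that of M10_2. The smooth muscle list lay between 5555 and 8171 CPM against 5702 and 7303 CPM. Of its 10 genes, 3 had an unadjusted p under 0.05 (edgeR quasi-likelihood), where 5.27% of all genes did. Without M10_2 and M13_1 these counts were 2 of 10 and 1.59%. Over all mice 1 of 9 fibroblast and 1 of 7 leukocyte genes passed, and 0 in either list without M10_2 and M13_1. The epithelial, enteric nervous, endothelial, adipocyte and squamous lists had 0 such genes in both fits. Endothelial (5 genes, 69.1 to 152.8 CPM), enteric nervous (9 genes, 39.5 to 89.9 CPM) and leukocyte (7 genes, 36.3 to 65.8 CPM) lists overlapped between genotypes, and the squamous list (6 genes, 1 of them at 0 in all mice) summed to 3.07 to 6.12 CPM. The part of tissue makeup in the levels of *Bmp4*, *Grem1*, *Chrdl1* and *Ptch1* was not tested beyond the relations that follow.

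Relations across mice were computed for 12 pairs, each of the 9 genes with the mean log2 level of the smooth muscle list, and *Ptch1* with *Ihh*, *Gli1* and *Hhip*, with two-sided permutation tests and Benjamini-Hochberg adjustment over the 12. Where M10_2 and M13_1 stood apart from the other mice, values are given over the other 10 alone. Over 12 mice, *Nog* had the closest relation with smooth muscle (r = 0.723, permutation p = 0.0100, adjusted 0.116, rho = 0.531, permutation p = 0.0796), and it rested on M17_1 and M20_1, with r = 0.313 when these were left out. For *Bmp7*, *Chrdl1* and *Ihh* r was 0.192, 0.446 and 0.432 (permutation p = 0.551, 0.148 and 0.162), with rho of 0.063, 0.364 and -0.028 (permutation p = 0.853, 0.246 and 0.939), and without M17_1 and M20_1 r was -0.139, 0.363 and -0.222. Over 10 mice, the r of *Bmp2*, *Bmp4*, *Grem1*, *Shh* and *Ptch1* with smooth muscle was 0.477, 0.393, 0.204, -0.533 and 0.324 (permutation p = 0.167, 0.259, 0.571, 0.114 and 0.365), and rho was 0.079, 0.491, 0.358, -0.479 and 0.030 (permutation p = 0.840, 0.155, 0.312, 0.165 and 0.946). With M17_1 and M20_1 also left out, r for *Bmp2*, *Grem1*, *Shh* and *Ptch1* lay between -0.147 and 0.130. For the stromal ligand *Bmp4* it was 0.814 (permutation p = 0.00796, adjusted 0.0659) with rho = 0.976 (permutation p = 0.00049, adjusted 0.00588) over these 8 mice, so this relation depends on which mice enter.

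*Ptch1* and *Ihh*, receptor and ligand, were correlated over those 10 mice (r = 0.831, permutation p = 0.00335, adjusted 0.0402), while the rank correlation did not pass (rho = 0.636, permutation p = 0.0549, adjusted 0.330). The relation passed the adjustment only once M10_2 and M13_1, which stand apart for *Ptch1*, were left out, and over all 12 mice the adjusted permutation p was 0.116 for r and 0.569 for rho. M17_1 was lowest for both genes, and without M17_1 and M18_2a, the mice farthest from the median of *Ihh*, r was 0.791 (permutation p = 0.0110, adjusted 0.0659). The genes share libraries that differ in slope with GC content, whose part was not tested. *Ptch1* with its co-target *Hhip* gave r = 0.516 (permutation p = 0.128, rho = 0.648, permutation p = 0.0492, adjusted 0.330), and with *Gli1* r = -0.337 (permutation p = 0.338, rho = -0.103, permutation p = 0.785). Without the 2 mice farthest from the median of each, r was 0.723 for *Hhip* and 0.718 for *Gli1*, neither with an adjusted permutation p under 0.05 (0.124 for both).

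Genes among those with the most similar pattern over the 12 mice were named for each member from 14903 genes with a mean of at least 1 CPM, by Pearson's r of log2 CPM, as a description. For *Bmp2* these were *Thop1* (0.982) and *Smad4* (0.978), and for *Grem1* *Ccdc32* (0.951), *Ippk* (0.950) and *Ddc* (0.948). The likeness to *Grem1* rested largely on M10_2 and M13_1, since without them r was 0.633, 0.647 and 0.702, while that of *Smad4* to *Bmp2* was 0.961. For *Shh* they were *Tnfaip8l1* (0.982), *Mmp7* (0.978) and *Tph1* (0.975), for *Bmp4* *Sfrp1* (0.938), *Meox1* (0.925) and *Arhgap28* (0.920), and for *Chrdl1* *Gm13131* (0.952), *Rab30* (0.918) and *Phldb2* (0.901). For *Ihh* they were *Bcar1* (0.993), *Tesk1* (0.990) and *Arpc4* (0.987), and for *Ptch1* *Mbtps1* (0.993), *Gas6* (0.988) and *Sh3pxd2a* (0.986). *Nog* was nearest to *Ier5* (0.956) and *Emilin2* (0.943), and *Bmp7* to *Lamc3* (0.971), *Cxxc5* (0.950) and *Mapk4* (0.939). The points share libraries that differ in GC slope and tissue makeup.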

How the data were processed

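Paired-end RNA-Seq reads came from the proximal colon of 12 mice. Reads were aligned by the authors with STAR 2.3.0 to GRCm38.p2 and counted with featureCounts (submitters' processing notes), and the authors deposited raw counts with a gene length for each mouse. Whether the counting used strand is not given in the sources used here. Symbols were taken from GENCODE M21 (37607 of 38924 IDs matched). Counts were scaled by TMM factors and tested with edgeR 4.0.16 (quasi-likelihood, genotype as the only term) on the 20311 genes that reached 10 counts in 3 or more mice. The fit was tested on simulated data. The standard error is the size of a log2 fold change divided by the square root of F. DESeq2 1.42.0, edgeR's exact test, other scalings and filters, and fits without mice were alternatives. CPM was scaled by TMM, log2 values used CPM + 0.1, and RPKM used the deposited lengths. Correlations used 100000 permutations. With 6 mice against 6 the smallest exact permutation p is 0.0022. A count of 3 corresponds to 0.0152 to 0.0596 CPM, for counting error only.

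The 9 members, the pathway and marker lists and the exclusion of M10_2 and M13_1 were chosen with earlier results of these data known. Named pathway genes were those with an unadjusted p under 0.05 and, in each list, the gene highest in mean RPKM and that with the largest fold change. Named with other reasons, after their values were seen, were genes below the filter, *Id2*, *Id3*, *Msx1*, *Gli1* and *Hhip*. The labels name each mouse but not its litter or batch. For each member the 3 genes with the highest Pearson's r were to be named, of which some are not reported here.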

Additional observations from a re-analysis of the deposited data

Results flagged for a closer look

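*Id4* was marked in the APC Min/+ group, because M13_1, at 31.2 CPM, lay far from the others, which ran from 13.6 to 19.7 CPM. The gap to the nearest mouse was 0.655 of the range of the group, above Dixon's critical value for a group of 6. This was 1 of 52 sets of values examined (26 genes in both genotypes), and chance marks about 1 in 20.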

How the results depend on the processing

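The counts of genes past the FDR and fold rule rested on the tool: 27 genes over the whole table with DESeq2 and 12 with edgeR's exact test, against 0 with the quasi-likelihood test under every scaling, filter and omission of mice. None of the 9 genes and none of the 57 pathway genes was called in any of these. The log2 fold changes of the 9 genes kept their direction and their side of the FDR threshold in all 63 values from other settings that leave out no single mouse. Leaving out 1 mouse turned the direction of *Bmp7* (-0.066 to 0.16) and *Ihh* (-0.00403 to 0.33), and of *Nbl1* (-0.11 to 0.19, negative without M17_1), each smaller than its standard error. Without M10_2 and M13_1 the genes with an unadjusted p under 0.05 fell from 1071 to 317 over the whole table, from 1 to 0 of the 9 and from 9 to 0 of the 57. With 1 mouse left out these counts were 523 (without M10_2) to 1828 (without M2_A), 0 to 3 of the 9, and 2 (without M13_1) to 12 of the 57, with 3 without M10_2. Relations whose Pearson's r had an adjusted permutation p under 0.05 numbered 0 over 12 mice, 1 without the 2 mice farthest from the median (*Ptch1* with *Hhip*, r = 0.830) and 1 without M10_2 and M13_1 (*Ptch1* with *Ihh*, r = 0.831). The sign of r turned for *Bmp7* (-0.139) and *Ihh* (-0.222) with smooth muscle without the 2 farthest mice and for *Ptch1* with *Gli1* (-0.337) without M10_2 and M13_1. The cause was not tested. Of the 9 genes, *Shh* (from 18 counts in a library) and *Nog* (from 36) rested on the fewest reads.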
